A study of Mus musculus with 12 samples.

Results

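The comparison described here is the effect of the TET knockout on epididymal white adipose tissue of mice fed a high-fat diet, across all genes with enough reads to test. HFD_TKO stands for C57BL/6 mice with the genotype labelled TET KO on the high-fat diet, and HFD_WT for wild-type C57BL/6 mice on the same diet, with 3 mice in each group. ND_TKO and ND_WT are the same genotypes on a normal diet, again with 3 mice each, and they entered the fit for the spread between mice and for the test of diet dependence. The title of the series places the ablation of TET proteins in adipocytes. The promoter driving the recombinase, which TET genes and exons were deleted, the age of the mice and the length of the diet are not given in the sources used here. The pad was sequenced whole, so each value is an average over adipocytes, macrophages, lymphocytes, vessels, stroma and mesothelium. Of 25229 genes listed with a symbol, 15597 had at least 0.5 CPM (each gene's reads as a share of all reads of its library, on a fixed scale) in at least 3 of the 12 libraries and were tested.

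TET1, TET2 and TET3 are dioxygenases that oxidise 5-methylcytosine, which in mammalian DNA sits mostly in CG dinucleotides (CpG), and so start its removal. Epididymal fat of mice on a high-fat diet is known to gain macrophages, many of which surround dying adipocytes and take up their lipid, while adipocytes lose expression of genes of insulin response, β-adrenergic response and mitochondrial metabolism. The series was made to find the transcriptional changes between TET KO and wild-type fat.

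Most listed genes of branched-chain amino acid breakdown, the citrate cycle and lipogenesis were higher in HFD_TKO than in HFD_WT, and most listed genes of lipid-laden macrophages, lysosomes and lymphocytes were lower. In whole tissue, fewer cells of a type and less RNA per cell cannot be told apart. Car3, an abundant carbonic anhydrase of adipocytes, stood at 17965, 26501 and 26700 CPM in HFD_TKO, against 4083, 3540 and 4080 CPM in HFD_WT (log2 change 2.58, SE 0.22, adjusted p = 2.5e-06). All 3 HFD_TKO mice lay above all 3 HFD_WT mice. Clec12a, an inhibitory lectin receptor of myeloid cells, stood at 14.8, 13.6 and 16.9 CPM in HFD_TKO, against 208, 232 and 238 CPM in HFD_WT (log2 change -3.82, SE 0.11, adjusted p = 5.3e-09), with the groups far apart and little spread within either. All changes are differences of log2(CPM + 1), and those printed without a name are log2 changes. Genes were tested by limma on that scale, adjusted together by the Benjamini-Hochberg method at 0.05. Of those tested 7288 (46.7%) were called, 2365 (15.2%) higher and 4923 (31.6%) lower in HFD_TKO. With trimmed mean (TMM) scaling of the libraries 3539 (22.7%) were higher and 3854 (24.7%) lower, so that lower genes made up 52.1% of the called genes, against 67.5% with CPM, and no gene was called in opposite directions. The median change of all genes was -0.10 with CPM and 0.01 with TMM scaling, a shift of 0.11, and changes below are to be read against those medians. Counts of called members in the lists below are to be read against the shares of all tested genes. A change of at least 2-fold was reached by 292 of the higher genes (1.87% of those tested) and 1571 of the lower genes (10.1%).

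Changes that passed the test were unequal in size, while the shares of reads gained and lost were close. The genes were called on these same values, and gains and losses of CPM offset each other. The called higher genes held 39% of the reads in HFD_TKO and 22.2% in HFD_WT, and the called lower genes 21.9% in HFD_TKO and 39.7% in HFD_WT. The median size of a called change was 0.53 for higher genes and 0.69 for lower genes on the log2 scale, and at least 8-fold changes numbered 8 higher and 52 lower. Among the 224 tested genes with a mean of 500 CPM or more, 36.2% were higher and 29.5% lower. Among the 1512 with a mean under 1 CPM, 5.03% were higher and 16.6% lower. The 10 most abundant genes held 12.3 to 13.1% of reads in HFD_TKO libraries and 6.99 to 7.30% in HFD_WT libraries. For 9299 genes (59.6%) the 3 values of one genotype lay wholly above or below those of the other. Among called genes this share was 98.3%.

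**Figure D1:**
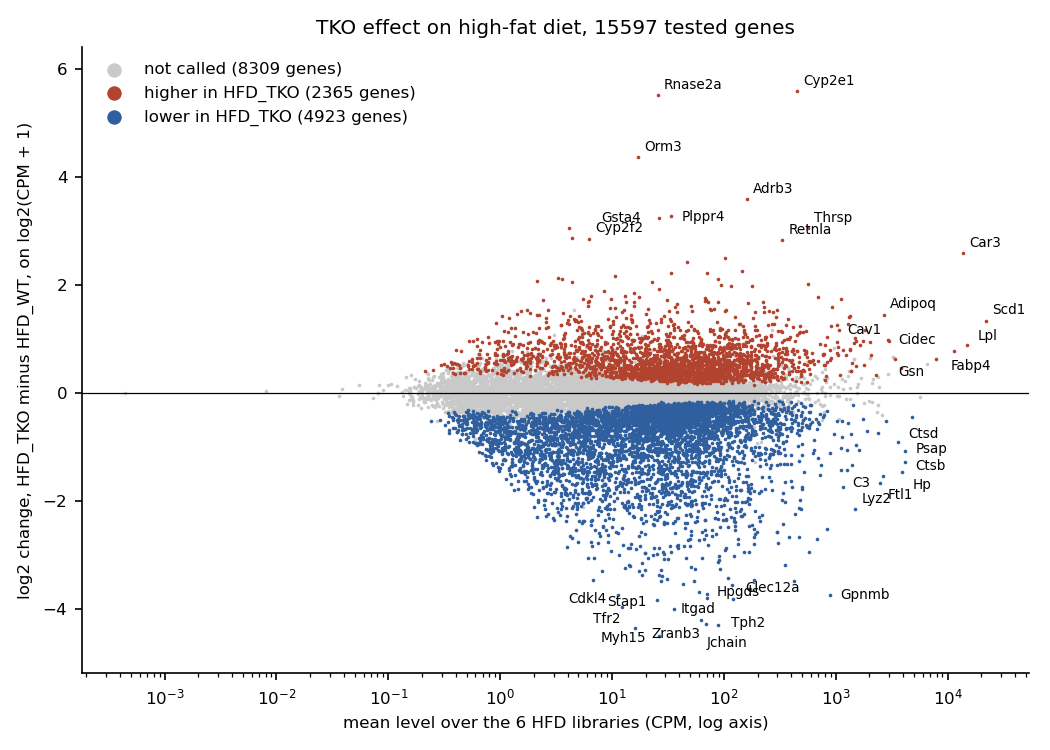
Each point is 1 of 15597 tested genes, with its mean CPM over the 6 HFD libraries on a log axis and its log2 change between HFD_TKO and HFD_WT on log2(CPM + 1); colours give the limma call, and the genes with the largest changes in fold or in CPM are named. Cyp2e1, Rnase2a, Orm3 and Adrb3 stand apart above a dense cloud, while the lower genes fan out down to Myh15 at -4.50, and the most abundant genes include Car3 and Scd1 above the line and Hp, Ctsb and Psap below it.

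The libraries did not vary alike. HFD_TKO replicate 1 lay farthest from the middle mouse of its group for 52.1% of tested genes and was the lowest of its group for 52.6%. That mouse was lowest for 10 of 10 mesothelium genes, whose summed level was 52.5, 254 and 222 CPM in HFD_TKO and 161, 132 and 131 CPM in HFD_WT, and highest for 20 of 23 genes of cholesterol synthesis and uptake. HFD_WT replicate 2 was the lowest of its group for 25 of 26 genes of T, NK and B cells, whose summed level was 34, 40.9 and 43.3 CPM in HFD_TKO and 373, 125 and 393 CPM in HFD_WT. HFD_WT replicate 3 was the highest of its group for 24 of 24 interferon-stimulated genes. The 6 HFD libraries held 21498935 to 25606629 reads, and 3 reads corresponded to 0.117 to 0.14 CPM in them. Without HFD_TKO replicate 1, 2418 genes were higher and 4366 lower. Leaving out any 1 of the 6 HFD libraries kept 1629 of the 2365 higher calls and 3778 of the 4923 lower calls throughout. The adipocyte hormone gene Adipoq, which marks the tissue, stood at 3004, 4293 and 4548 CPM in HFD_TKO, against 1436, 1349 and 1501 CPM in HFD_WT. Of 5 epididymis genes 1 was tested and their sum stayed at or below 0.608 CPM, and of 5 skeletal muscle genes 1 passed the filter, the actin gene Acta1 (32.2, 30.5 and 31.4 CPM in HFD_TKO, against 11.7, 9.74 and 14.1 CPM in HFD_WT; log2 change 1.35, SE 0.21, adjusted p = 0.00023). All 5 lymph node genes passed the filter, and 4 were lower; their levels are given with the lymphocyte genes. The part of muscle RNA in the results was not tested.

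Transcripts of the TET genes were not lower by the test in HFD_TKO. Tet1 was higher, at 3.07, 2.07 and 1.65 CPM in HFD_TKO, against 0.86, 0.841 and 0.996 CPM in HFD_WT (log2 change 0.76, SE 0.21, adjusted p = 0.01). Tet2 stood at 9.54, 13.4 and 10.7 CPM in HFD_TKO, against 13.7, 16.2 and 17.8 CPM in HFD_WT (log2 change -0.47, adjusted p = 0.066). Tet3 stood at 61, 62.4 and 58.9 CPM in HFD_TKO, against 64.6, 70.5 and 71.7 CPM in HFD_WT (log2 change -0.18, adjusted p = 0.13). A total per gene counts exons left after a deletion, and RNA of cells outside the adipocyte lineage, so these levels do not check the labels, and TKO here means the libraries labelled so. Tet2 passed when the 6 HFD libraries were fitted alone (adjusted p = 0.028) and without HFD_TKO replicate 2 (-0.60, adjusted p = 0.042), ND_TKO replicate 2 (adjusted p = 0.038) or ND_WT replicate 3 (0.045). The maintenance methyltransferase gene Dnmt1 was lower in HFD_TKO, at 25.3, 24.9 and 23.1 CPM in HFD_TKO, against 63.9, 64.7 and 54.9 CPM in HFD_WT (log2 change -1.29, SE 0.09, adjusted p = 6.9e-07). So were Uhrf1, which guides DNMT1 to newly copied DNA (log2 change -1.39, SE 0.19, adjusted p = 9.8e-05), and the de novo methyltransferase gene Dnmt3a (log2 change -1.0, SE 0.13, adjusted p = 4.8e-05). Of 19 tested genes of TET, DNA methyltransferase and demethylation proteins 2 were higher and 8 lower (4 and 7 with TMM scaling), with a median of -0.32; 1 was higher without HFD_TKO replicate 3, HFD_WT replicate 1 or HFD_WT replicate 2. The cytidine deaminase gene Apobec1 had the lowest change among them (-2.48).

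Size of change went with the CpG content of the promoter. A promoter is taken here as the 250 bases before the start site in RefSeq (GRCm38.p6), and 9786 tested genes had 1 listed start. Genes whose promoter held no CpG (146 genes) were lower by at least 2-fold in 26% of cases and higher by at least 2-fold in 7.53%. With 20 or more CpG (3196 genes) the shares were 6.23% and 1.38%. The shares of any called change were closer: 42.5% lower and 13.7% higher with no CpG, against 28.6% lower and 16.9% higher with 20 or more. These shares depended on the scaling. With TMM scaling they were 39% lower and 19.9% higher with no CpG, against 20.5% lower and 26.2% higher with 20 or more. The median promoter held 9 CpG among genes higher by at least 2-fold and 8 among genes lower by at least 2-fold, against 15 over all 9786 genes. These are counts over genes with no test, and the part of transcript level or tissue restriction in them was not tested.

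**Figure D2:**
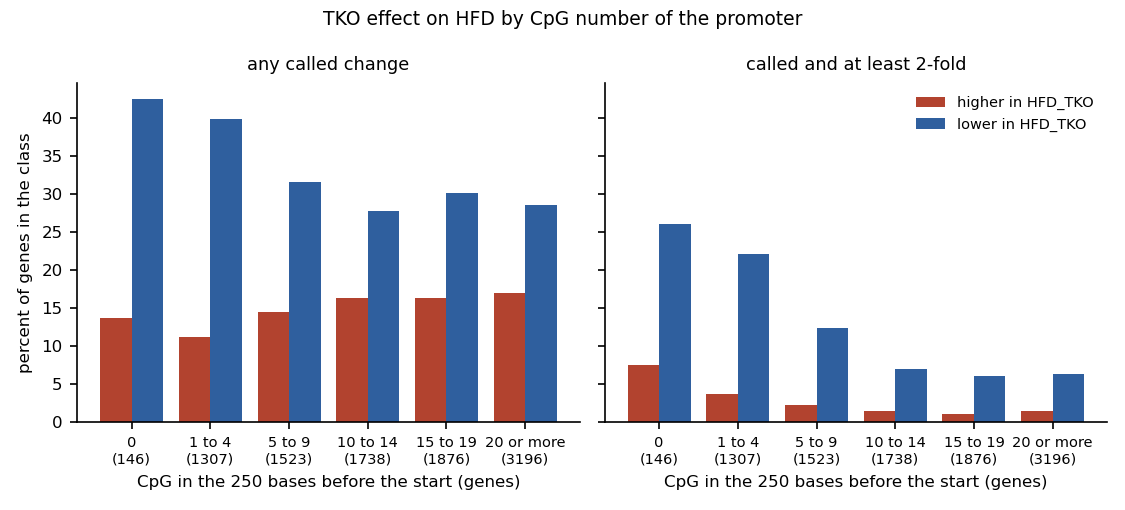
Bars give the percent of genes called higher or lower in HFD_TKO, by CpG number in the 250 bases before the start site. Calls are those with CPM, without TMM scaling. The number of genes in each class is under the axis. The left panel counts any called change and the right panel called changes of at least 2-fold. In the right panel the lower share is 26% with no CpG and 6.23% with 20 or more, with the lowest class at 6.08%; the higher share is 7.53% with no CpG and 1.38% with 20 or more, with the lowest class at 1.07%.

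The 250 bases before the start are shown for 6 genes, 5 with large changes and few CpG and 1 replication gene with more, in lower case with every CpG in capitals, 5′ to 3′ on the gene's strand (RefSeq, GRCm38.p6). Cyp2e1 (chr7:140763569-140763818, plus strand), Thrsp (chr7:97417551-97417800, minus strand) and Retnla (chr16:48842359-48842608, plus strand) were higher in HFD_TKO and held 2, 2 and 1 CpG. Itgax (chr7:128129300-128129549, plus strand), Gpnmb (chr6:49036268-49036517, plus strand) and Mcm6 (chr1:128359706-128359955, minus strand) were lower and held 5, 7 and 13.
Cyp2e1: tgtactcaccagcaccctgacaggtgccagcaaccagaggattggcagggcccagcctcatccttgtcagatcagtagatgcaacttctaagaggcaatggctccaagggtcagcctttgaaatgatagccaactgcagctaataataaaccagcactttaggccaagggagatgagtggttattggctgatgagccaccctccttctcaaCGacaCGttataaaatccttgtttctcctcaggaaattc
Thrsp: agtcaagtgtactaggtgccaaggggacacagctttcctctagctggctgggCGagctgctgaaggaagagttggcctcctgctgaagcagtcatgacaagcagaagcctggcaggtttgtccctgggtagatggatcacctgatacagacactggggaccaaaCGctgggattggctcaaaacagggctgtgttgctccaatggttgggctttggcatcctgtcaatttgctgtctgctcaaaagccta
Retnla: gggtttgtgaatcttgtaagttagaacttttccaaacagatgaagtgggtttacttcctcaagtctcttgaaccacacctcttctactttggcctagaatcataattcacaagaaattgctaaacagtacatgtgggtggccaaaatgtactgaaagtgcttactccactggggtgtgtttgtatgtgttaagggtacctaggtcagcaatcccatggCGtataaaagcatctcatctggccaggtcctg
Itgax: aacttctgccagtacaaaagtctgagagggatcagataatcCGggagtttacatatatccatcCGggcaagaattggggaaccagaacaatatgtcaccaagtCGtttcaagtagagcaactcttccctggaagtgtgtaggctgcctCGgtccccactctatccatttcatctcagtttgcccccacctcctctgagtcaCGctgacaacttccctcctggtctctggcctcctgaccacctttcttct
Gpnmb: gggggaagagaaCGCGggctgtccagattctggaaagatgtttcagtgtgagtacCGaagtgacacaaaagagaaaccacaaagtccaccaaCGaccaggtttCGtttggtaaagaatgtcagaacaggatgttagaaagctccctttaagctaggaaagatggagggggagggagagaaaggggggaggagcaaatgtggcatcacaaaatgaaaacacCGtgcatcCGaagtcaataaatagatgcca
Mcm6: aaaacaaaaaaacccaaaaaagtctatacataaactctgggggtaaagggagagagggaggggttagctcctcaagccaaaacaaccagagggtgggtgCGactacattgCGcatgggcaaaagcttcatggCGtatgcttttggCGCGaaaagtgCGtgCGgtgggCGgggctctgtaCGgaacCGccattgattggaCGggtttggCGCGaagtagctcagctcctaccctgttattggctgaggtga
Searched on both strands, the letters of the CCAAT box were in the windows of Cyp2e1, Thrsp, Itgax and Mcm6 and in 36.7% of all 9786 promoters. They were in 71.4% of the 21 promoters of cell cycle genes. In the other lists counted the share ran from 12.5% (16 complement promoters) to 62.5% (16 promoters of branched-chain amino acid breakdown). AGGTCA, a site bound by single subunits of many nuclear receptors, was in the Retnla window and in 10.4% of all promoters, with 9.39% among genes higher and 14.9% among genes lower by at least 2-fold. GGAAGT, an ETS core with flanks, was in the Retnla and Itgax windows and in 23.5% of all promoters, with 15.5% among genes higher and 27.7% among genes lower by at least 2-fold. Matches were counted wherever the letters stood, overlaps included; a match is a run of letters and not a shown binding site.

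The genes with the highest rises have different known roles. Cyp2e1, an ethanol- and fatty acid-oxidising cytochrome P450, stood at 988, 937 and 736 CPM in HFD_TKO, against 28.5, 16.9 and 10.6 CPM in HFD_WT (log2 change 5.59, SE 0.42, adjusted p = 9.1e-07). Rnase2a, a ribonuclease of the eosinophil-associated family, stood at 69.5, 37.1 and 46.2 CPM in HFD_TKO, against 0.274, 0.000443 and 0.0437 CPM in HFD_WT (log2 change 5.51, SE 0.37, adjusted p = 4.5e-07). Each HFD_TKO mouse was far above each HFD_WT mouse for both genes, and the HFD_WT libraries of Rnase2a lay at a handful of reads or none, where 0.000443 CPM stands for no read, so that its fitted fold depends on the added 1 CPM. The fatty aldehyde-conjugating glutathione transferase gene Gsta4 stood at 45.5, 52.9 and 47.2 CPM in HFD_TKO, against 5, 2.92 and 5.06 CPM in HFD_WT (log2 change 3.24, SE 0.16, adjusted p = 7.9e-08). Plppr4, a phospholipid phosphatase-related membrane protein known from neurons, rose as well (log2 change 3.26, SE 0.37, adjusted p = 2e-05), as did Cyp2f2 (2.85). Cyp2f2 was under 1 CPM in every HFD_WT library, so its fitted fold also depends on the added 1 CPM. Its log2 change ran from 1.53 to 4.13 across the alternatives. Among 31 genes of cytochromes P450 and glutathione transferases 15 were higher and 3 lower, with a median of 0.48. Cyp1b1, a P450 of stromal cells that oxidises estrogens and retinoids, was among the lower genes, at 35.8, 46.3 and 47 CPM in HFD_TKO, against 134, 155 and 118 CPM in HFD_WT (log2 change -1.64, SE 0.21, adjusted p = 5.3e-05). Reads of related genes of these families could be split between copies, so values of single members are less certain.

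In read share, the largest gains among called genes with no overlap between groups belonged to Car3, the fatty acid desaturase gene Scd1, the lipoprotein lipase gene Lpl, the fatty acid carrier gene Fabp4, the gelsolin gene Gsn, and Adipoq, Cidec and Cav1, and the largest losses to Hp, Ctsb, Psap, Ftl1, C3, Ctsd, Lyz2 and Gpnmb. CPM grows with transcript length as well as with abundance, so this order is one of reads. Scd1 stood at 33247, 33099 and 29025 CPM in HFD_TKO, against 12911, 11805 and 13163 CPM in HFD_WT (log2 change 1.33, SE 0.26, adjusted p = 0.0013). Cidec, a lipid droplet fusion protein, stood at 4616, 3528 and 3605 CPM in HFD_TKO, against 2053, 2047 and 1838 CPM in HFD_WT (log2 change 0.98, SE 0.15, adjusted p = 0.00028). Ftl1, the ferritin light chain, stood at 1333, 1261 and 1512 CPM in HFD_TKO, against 3937, 4265 and 3739 CPM in HFD_WT (log2 change -1.54, SE 0.10, adjusted p = 4.7e-07). The lysozyme gene Lyz2 stood at 524, 535 and 581 CPM in HFD_TKO, against 2555, 2602 and 2180 CPM in HFD_WT (log2 change -2.16, SE 0.18, adjusted p = 1.7e-06). In all 4 genes the groups did not overlap. Without a filter on low values 4 of the gains missed the threshold: Scd1 (adjusted p = 0.35), Lpl (0.25), Fabp4 (0.26) and Gsn (0.29). Gsn was at 6872, 10799 and 11273 CPM in HFD_TKO, against 5868, 6482 and 6093 CPM in HFD_WT (log2 change 0.62, SE 0.21, adjusted p = 0.029), and its call also ended without HFD_TKO replicate 2 (adjusted p = 0.1) or 3 (0.11), and without HFD_WT replicate 1 (0.093), 2 (0.061) or 3 (0.071).

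The catecholamine receptors were not raised as a family. Adrb3, the receptor through which noradrenaline drives lipolysis in mouse adipocytes, stood at 194, 350 and 346 CPM in HFD_TKO, against 26.2, 25.6 and 18.1 CPM in HFD_WT (log2 change 3.58, SE 0.23, adjusted p = 3.6e-07), with replicate 1 lowest among the knockouts and still several times above every HFD_WT mouse. Adra1d, an α1 receptor, was the other of 2 higher receptors among 8 tested, at 11.1, 13.3 and 14.6 CPM in HFD_TKO, against 7.5, 7.92 and 6.97 CPM in HFD_WT (log2 change 0.72, SE 0.13, adjusted p = 0.00058). Adrb1 stood at 1.3, 1.84 and 2.33 CPM in HFD_TKO, against 1.48, 1.81 and 2.51 CPM in HFD_WT (log2 change -0.06, adjusted p = 0.8) and did not pass the test. Adra2a, the receptor that restrains adenylyl cyclase, was under 1 CPM in every HFD library (log2 change -0.16, adjusted p = 0.44).

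Downstream of these receptors the cyclic AMP genes went both ways. Of 30 tested genes 6 were higher and 12 lower (8 and 9 with TMM scaling). With CPM this was close to the shares over all tested genes, 15.2% higher and 31.6% lower. The adenylyl cyclase gene Adcy6 stood at 197, 249 and 243 CPM in HFD_TKO, against 114, 115 and 119 CPM in HFD_WT (log2 change 0.97, SE 0.09, adjusted p = 6.4e-06) and Adcy5 rose by 0.66, whereas Adcy7, the cyclase of leukocytes, stood at 32.7, 37.9 and 40.8 CPM in HFD_TKO, against 146, 147 and 150 CPM in HFD_WT (log2 change -1.97, SE 0.16, adjusted p = 2e-06) and Adcy3 had a change of -1.49. The groups did not overlap for any of the 4 cyclases, as for 98.3% of all called genes. Prkar2b, the regulatory subunit of protein kinase A that is prominent in fat, stood at 1032, 981 and 939 CPM in HFD_TKO, against 639, 570 and 584 CPM in HFD_WT (log2 change 0.72, SE 0.08, adjusted p = 1.7e-05). Pde3b, the phosphodiesterase through which insulin lowers cyclic AMP in adipocytes, was also higher (log2 change 1.15, SE 0.14, adjusted p = 4.9e-05), and Pde8a was lower (-1.07).

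Lipid handling genes were mostly higher. Of 19 genes of lipolysis and the lipid droplet 12 were higher and 3 lower (median 0.61), and of 27 genes of lipogenesis and triglyceride assembly 18 were higher and 1 lower (median 0.77; 20 and 0 with TMM scaling). Thrsp, a lipogenic regulator that answers to thyroid hormone and carbohydrate, stood at 957, 1033 and 1030 CPM in HFD_TKO, against 126, 138 and 102 CPM in HFD_WT (log2 change 3.05, SE 0.15, adjusted p = 6.6e-08), with no overlap and little spread within either group. The carboxylesterase gene Ces1d, which encodes a triglyceride hydrolase of adipocytes, stood at 826, 1233 and 1170 CPM in HFD_TKO, against 301, 266 and 369 CPM in HFD_WT (log2 change 1.77, SE 0.17, adjusted p = 5.8e-06). Gpd1, which makes glycerol 3-phosphate for triglyceride, and Pnpla3 rose by 1.15 and 1.40. Against this direction, Plin2, the droplet coat protein found in many cell types, stood at 1031, 561 and 659 CPM in HFD_TKO, against 1494, 1594 and 1349 CPM in HFD_WT (log2 change -1.02, SE 0.18, adjusted p = 0.00066). The hypoxia-inducible lipase inhibitor gene Hilpda stood at 16.7, 6.98 and 7.81 CPM in HFD_TKO, against 23.7, 25.4 and 21.6 CPM in HFD_WT (log2 change -1.19, SE 0.24, adjusted p = 0.0015). Cidea fell to the level of at most 3 reads in each HFD_TKO library, against 3.71, 2.74 and 5.19 CPM in HFD_WT. Elovl6, a fatty acid elongase, was lower with CPM (log2 change -0.60, adjusted p = 0.022) and missed the threshold with TMM scaling (-0.47, adjusted p = 0.07) and without HFD_TKO replicate 2 (adjusted p = 0.067), HFD_TKO replicate 3 (adjusted p = 0.055), HFD_WT replicate 1 (adjusted p = 0.054) or HFD_WT replicate 2 (adjusted p = 0.065). HFD_TKO replicate 1 was the highest of its group for 17 of the 27 lipogenic genes. Without it 16 members were higher and 3 lower. There were 2 lower without ND_TKO replicate 2 or 3 or ND_WT replicate 1 or 2.

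Of 17 genes of fatty acid uptake and activation 7 were higher and 3 lower (median 0.07), but 5 higher and 1 lower without HFD_WT replicate 3. Dbi, the acyl-CoA-binding protein, stood at 2315, 1971 and 2067 CPM in HFD_TKO, against 1185, 1194 and 1079 CPM in HFD_WT (log2 change 0.88, SE 0.11, adjusted p = 6.1e-05). The acyl-CoA synthetase gene Acsl5 stood at 73.8, 80.5 and 88.3 CPM in HFD_TKO, against 154, 155 and 150 CPM in HFD_WT (log2 change -0.92, SE 0.08, adjusted p = 2e-06). Fabp5 (log2 change 0.02, adjusted p = 0.95) and the fatty acid transporter gene Slc27a1 (log2 change -0.25, adjusted p = 0.56) had overlapping groups.

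**Figure D3:**
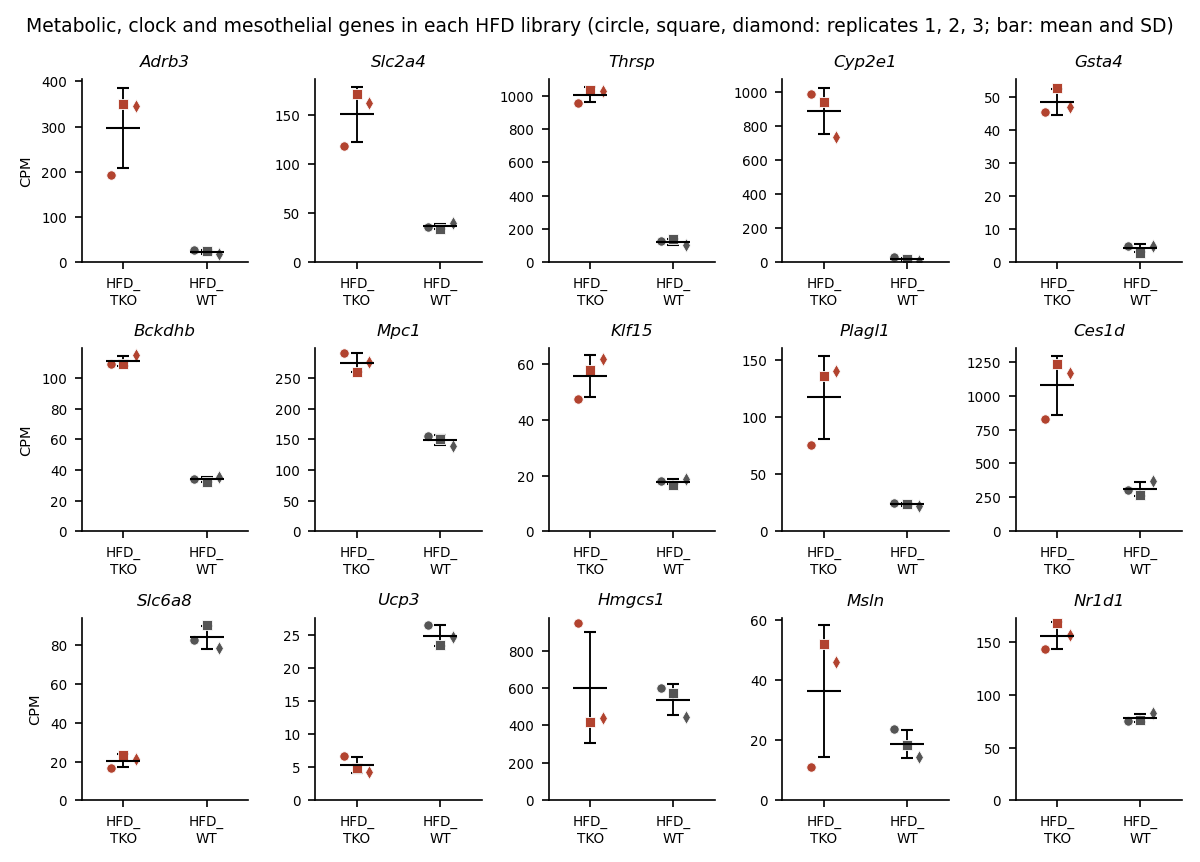
Levels in CPM of 15 genes in each of the 6 HFD libraries, HFD_TKO left and HFD_WT right, each axis starting at 0; circles, squares and diamonds are replicates 1, 2 and 3, and bars give the mean and SD (n = 3). Adrb3, Thrsp, Cyp2e1 and Bckdhb show no overlap between groups, Slc6a8 and Ucp3 lie lower in HFD_TKO, and in Hmgcs1 and Msln replicate 1 of HFD_TKO stands apart from the other mice of its group.

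Breakdown of branched-chain amino acids, a mitochondrial pathway of adipocytes that obesity is known to lower, showed the highest share of higher members of any list with at least 5 tested genes. Of 25 genes 21 were higher and 1 lower, with a median of 0.70. Bckdhb, the E1β subunit of the committed branched-chain ketoacid dehydrogenase, stood at 109, 109 and 115 CPM in HFD_TKO, against 34.4, 32.3 and 35.4 CPM in HFD_WT (log2 change 1.67, SE 0.08, adjusted p = 6.3e-08), and the values within each group were nearly equal. Dbt, the E2 subunit, stood at 104, 116 and 106 CPM in HFD_TKO, against 51.7, 44.1 and 51.7 CPM in HFD_WT (log2 change 1.13, SE 0.11, adjusted p = 6.5e-06). Mccc1 of the leucine branch stood at 230, 215 and 188 CPM in HFD_TKO, against 95.9, 86.6 and 97.3 CPM in HFD_WT (log2 change 1.17, SE 0.13, adjusted p = 1.8e-05). Aldh6a1 of the valine branch stood at 322, 439 and 385 CPM in HFD_TKO, against 210, 183 and 221 CPM in HFD_WT (log2 change 0.89, SE 0.16, adjusted p = 0.00061). The count was 20 to 21 higher genes when single HFD libraries were left out.

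The citrate cycle and pyruvate entry followed, with 22 of 27 genes higher and 2 lower (median 0.48). Both subunits of the mitochondrial pyruvate carrier rose: Mpc1 stood at 290, 259 and 275 CPM in HFD_TKO, against 155, 150 and 139 CPM in HFD_WT (log2 change 0.89, SE 0.07, adjusted p = 1.1e-06) and Mpc2 had a change of 0.84. Pcx, the pyruvate carboxylase, stood at 1514, 1326 and 1224 CPM in HFD_TKO, against 742, 739 and 642 CPM in HFD_WT (log2 change 0.93, SE 0.14, adjusted p = 0.00022). The 2 lower members were both pyruvate dehydrogenase kinases, enzymes that switch off pyruvate oxidation, of which a further member, Pdk2, was among the higher genes. Pdk4 stood at 40.7, 86 and 85.5 CPM in HFD_TKO, against 164, 152 and 142 CPM in HFD_WT (log2 change -1.17, SE 0.25, adjusted p = 0.0021). Pdk1 stood at 27.2, 29.8 and 31.1 CPM in HFD_TKO, against 48.5, 46.6 and 49.3 CPM in HFD_WT (log2 change -0.70, SE 0.17, adjusted p = 0.0059). In each the highest HFD_TKO mouse lay below the lowest HFD_WT mouse, and groups did not overlap for 98.3% of all called genes.

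Glycolysis genes went both ways (6 of 22 higher, 7 lower, median -0.07 with CPM and 0.05 with TMM scaling). Of all tested genes 15.2% were higher and 31.6% lower. Hk3, the hexokinase of myeloid cells, stood at 10.9, 10.1 and 13.5 CPM in HFD_TKO, against 85.6, 95.4 and 84.8 CPM in HFD_WT (log2 change -2.85, SE 0.23, adjusted p = 1.6e-06). The insulin-responsive hexokinase gene Hk2 stood at 128, 123 and 113 CPM in HFD_TKO, against 77.4, 72.1 and 87 CPM in HFD_WT (log2 change 0.62, SE 0.08, adjusted p = 6.5e-05). Of the phosphofructokinases, Pfkm had a change of 0.49 and Pfkp of -0.78. The basal glucose transporter gene Slc2a1 was lower (log2 change -0.56, SE 0.09, adjusted p = 0.00024) and Slc2a4, the insulin-responsive transporter of fat and muscle, was higher (log2 change 2.0, SE 0.14, adjusted p = 5.1e-07). Without HFD_WT replicate 3 the higher members numbered 3.

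Insulin signalling genes went both ways, with 8 of 24 genes higher and 8 lower (median 0.12; 11 and 8 with TMM scaling). Akt2, the Akt kinase of insulin-stimulated glucose uptake, stood at 440, 384 and 372 CPM in HFD_TKO, against 270, 270 and 268 CPM in HFD_WT (log2 change 0.56, SE 0.07, adjusted p = 6.6e-05). Akt1 stood at 90.4, 103 and 105 CPM in HFD_TKO, against 153, 159 and 156 CPM in HFD_WT (log2 change -0.65, SE 0.07, adjusted p = 2e-05). Irs1, an insulin receptor substrate, was higher (log2 change 1.10, SE 0.25, adjusted p = 0.0035). Ptpn1, the phosphatase that dephosphorylates the insulin receptor, stood at 45, 46.9 and 49.2 CPM in HFD_TKO, against 99.9, 95 and 97.1 CPM in HFD_WT (log2 change -1.04, SE 0.10, adjusted p = 4.2e-06). The adaptor gene Grb14, an inhibitor of the receptor, was lower too (log2 change -0.85, SE 0.19, adjusted p = 0.0032). Insr itself missed the threshold (log2 change 0.38, adjusted p = 0.074), and passed with TMM scaling (0.51, adjusted p = 0.015) and without ND_WT replicate 3 (adjusted p = 0.012).

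Secreted adipocyte proteins and regulators of the adipocyte state were in part higher. The retinol-binding protein gene Rbp4 stood at 495, 404 and 431 CPM in HFD_TKO, against 160, 154 and 144 CPM in HFD_WT (log2 change 1.53, SE 0.15, adjusted p = 8.5e-06), and the resistin gene Retn rose by 1.59. Nrg4, a neuregulin made by thermogenic fat, was lower, at 26.7, 28.1 and 24.5 CPM in HFD_TKO, against 43.5, 37 and 49.9 CPM in HFD_WT (log2 change -0.69, SE 0.16, adjusted p = 0.0047), as was Metrnl (-1.52); in all, 4 of 15 adipokine genes were higher and 3 lower (7 and 3 with TMM scaling). Among 24 adipogenic transcription factors 9 were higher and 2 lower (13 and 2 with TMM scaling; 1 lower without HFD_TKO replicate 1, HFD_WT replicate 1 or HFD_WT replicate 2). Klf15, a factor of amino acid and lipid metabolism, had the largest rise of them, at 47.4, 58.1 and 61.9 CPM in HFD_TKO, against 18, 16.8 and 18.7 CPM in HFD_WT (log2 change 1.58, SE 0.11, adjusted p = 4.7e-07). Cebpa stood at 504, 515 and 552 CPM in HFD_TKO, against 319, 326 and 309 CPM in HFD_WT (log2 change 0.72, SE 0.11, adjusted p = 0.00025). Id2, an inhibitor of basic helix-loop-helix factors, stood at 12.5, 14.1 and 15.7 CPM in HFD_TKO, against 46, 43.9 and 51.3 CPM in HFD_WT (log2 change -1.67, SE 0.14, adjusted p = 1.6e-06).

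Thermogenic genes did not move together (6 of 22 higher, 8 lower, median -0.36). Of all tested genes 15.2% were higher and 31.6% lower. Leaving out 1 library gave 4 to 6 higher and 7 to 11 lower members, with 11 lower (median -0.48) without HFD_TKO replicate 1. Ucp1, the uncoupling protein of brown and beige fat, did not reach the filter. Slc6a8, the creatine transporter of the creatine cycle, stood at 16.6, 23.2 and 21.3 CPM in HFD_TKO, against 82.6, 90.5 and 78.6 CPM in HFD_WT (log2 change -2.0, SE 0.13, adjusted p = 3.1e-07). Ucp3, an uncoupling protein relative, stood at 6.65, 4.92 and 4.34 CPM in HFD_TKO, against 26.6, 23.5 and 24.8 CPM in HFD_WT (log2 change -2.06, SE 0.13, adjusted p = 2.6e-07). Dio2, which activates thyroid hormone, stood at 28.2, 9.1 and 8.27 CPM in HFD_TKO, against 4.76, 4.82 and 2.08 CPM in HFD_WT (log2 change 1.57, SE 0.39, adjusted p = 0.006), with replicate 1 far above the other knockouts. Alpl, a phosphatase also used in the creatine cycle, stood at 13.3, 13.6 and 13.9 CPM in HFD_TKO, against 5.78, 4.03 and 6.41 CPM in HFD_WT (log2 change 1.21, SE 0.17, adjusted p = 0.0001). Ucp2 passed with CPM (log2 change -0.45, adjusted p = 0.0071) and not with TMM scaling (-0.32, adjusted p = 0.068), and Prdm16, a regulator of beige fat, did not pass (log2 change -0.35, adjusted p = 0.093), except without HFD_TKO replicate 1 (-0.46, adjusted p = 0.043).

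Of the clock genes, Nr1d1, which encodes the repressor REV-ERBα, stood at 143, 168 and 157 CPM in HFD_TKO, against 75.4, 76.4 and 82.4 CPM in HFD_WT (log2 change 0.99, SE 0.15, adjusted p = 0.00019). Cry2 stood at 64.8, 71.6 and 70.8 CPM in HFD_TKO, against 41.5, 39.4 and 46 CPM in HFD_WT (log2 change 0.70, SE 0.08, adjusted p = 2.2e-05). Dbp, a D-box activator, was higher, at 60.2, 81.1 and 85.7 CPM in HFD_TKO, against 48.4, 50.4 and 60.3 CPM in HFD_WT (log2 change 0.50, SE 0.16, adjusted p = 0.024), and its call ended without HFD_TKO replicate 2 (adjusted p = 0.077), HFD_TKO replicate 3 (adjusted p = 0.095), HFD_WT replicate 1 (adjusted p = 0.085) or HFD_WT replicate 2 (adjusted p = 0.071). The activator gene Arntl was lower, at 7.49, 4.09 and 3.02 CPM in HFD_TKO, against 9.96, 9.78 and 9.69 CPM in HFD_WT (log2 change -0.95, SE 0.24, adjusted p = 0.0064). Npas2 stood at 0.14, 0.368 and 0.64 CPM in HFD_TKO, against 2.81, 2.97 and 2.6 CPM in HFD_WT (log2 change -1.47, SE 0.16, adjusted p = 1.5e-05). The D-box repressor gene Nfil3 was lower as well (log2 change -0.95, SE 0.23, adjusted p = 0.0058). Of 19 clock genes 4 were higher and 5 lower (7 and 5 with TMM scaling), against 15.2% and 31.6% of all tested genes. Without HFD_TKO replicate 1 the higher members numbered 7, and 2 with HFD_TKO replicate 2 or HFD_TKO replicate 3 left out. The hour of tissue collection is not given in the sources used here.

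Calls of cholesterol genes depended on single libraries. Of 23 genes 2 were higher and 4 lower (median 0.02), and 2 were higher and 7 lower (median -0.29) without HFD_TKO replicate 1. Without ND_WT replicate 3 there were 4 higher. Hmgcs1, a synthase of the early pathway, stood at 945, 419 and 441 CPM in HFD_TKO, against 598, 572 and 446 CPM in HFD_WT (log2 change 0.07, adjusted p = 0.88). The regulator gene Srebf2 stood at 30.9, 32 and 36.2 CPM in HFD_TKO, against 51.9, 53.1 and 57.4 CPM in HFD_WT (log2 change -0.70, SE 0.10, adjusted p = 9.4e-05). In the sphingolipid list 7 of 25 genes were higher and 11 lower (median -0.22), and leaving out 1 library gave 5 to 7 higher and 9 to 15 lower. The shares over all tested genes, to be set beside the cholesterol and the sphingolipid counts, were 15.2% higher and 31.6% lower. Sptlc3, an inducible subunit of serine palmitoyltransferase, stood at 4.79, 6.43 and 4.84 CPM in HFD_TKO, against 1.64, 1.59 and 1.73 CPM in HFD_WT (log2 change 1.25, SE 0.13, adjusted p = 1.1e-05). The ceramide synthase gene Cers6, which obesity is known to raise in fat, stood at 19.8, 26.1 and 24.1 CPM in HFD_TKO, against 56.6, 59.7 and 67 CPM in HFD_WT (log2 change -1.36, SE 0.14, adjusted p = 9.7e-06), and the sphingolipid desaturase gene Degs2 had the lowest change of the list (-2.03).

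The imprinted and expansion genes included a large rise. Plagl1, an imprinted zinc finger regulator of growth genes, stood at 75.6, 136 and 141 CPM in HFD_TKO, against 24.7, 24 and 22.2 CPM in HFD_WT (log2 change 2.21, SE 0.20, adjusted p = 3.6e-06), with replicate 1 lowest of the knockouts and above all HFD_WT mice. Cdkn1c, an imprinted cell cycle inhibitor, was higher (log2 change 1.03, SE 0.22, adjusted p = 0.0022) and the imprinted gene Peg3 lower, at 17.8, 27.2 and 22.6 CPM in HFD_TKO, against 55.9, 50.8 and 59.7 CPM in HFD_WT (log2 change -1.28, SE 0.17, adjusted p = 8.8e-05). Cav1, the main protein of caveolae, stood at 3915, 3962 and 3940 CPM in HFD_TKO, against 2091, 2016 and 1966 CPM in HFD_WT (log2 change 0.96, SE 0.11, adjusted p = 2.6e-05), and the caveola coat gene Cavin3 rose by 1.28. Mest, a marker of fat expansion, varied within the knockouts (974, 511 and 458 CPM in HFD_TKO, against 858, 813 and 951 CPM in HFD_WT; log2 change -0.51, adjusted p = 0.38). Of 19 genes of this list 8 were higher and 2 lower.

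Of 35 histone deacetylase and corepressor genes 4 were higher and 14 lower (7 and 9 with TMM scaling), with a median of -0.19. The shares over all tested genes were 15.2% and 31.6%, or 22.7% and 24.7% with TMM scaling. Hdac9, a class IIa deacetylase, stood at 10.9, 7.63 and 7.95 CPM in HFD_TKO, against 25.5, 25.3 and 27.1 CPM in HFD_WT (log2 change -1.47, SE 0.29, adjusted p = 0.0013). The mitochondrial deacylase gene Sirt3 stood at 10.1, 13.6 and 12.7 CPM in HFD_TKO, against 8.55, 7.66 and 8.57 CPM in HFD_WT (log2 change 0.50, SE 0.12, adjusted p = 0.004), and the NuRD subunit genes Mbd3 and Chd4 had changes of 0.59 and -0.45. Hdac1 (log2 change 0.17, adjusted p = 0.06) passed with TMM scaling (adjusted p = 0.0021) and without ND_WT replicate 3 (0.044).

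Most genes of lipid-associated macrophages and of macrophage growth were lower. Of 22 genes of lipid-associated macrophages, the cells that take up lipid of dying adipocytes, 18 were lower and 1 was higher (median -2.60). Gpnmb, a lysosomal membrane glycoprotein of these cells, stood at 87.3, 125 and 161 CPM in HFD_TKO, against 1721, 2028 and 1249 CPM in HFD_WT (log2 change -3.75, SE 0.43, adjusted p = 2.3e-05). The macrophage elastase gene Mmp12 stood at 50.7, 71.3 and 85.1 CPM in HFD_TKO, against 852, 881 and 611 CPM in HFD_WT (log2 change -3.49, SE 0.38, adjusted p = 1.6e-05). The integrin gene Itgax, for CD11c, was flat within the knockouts at 23.8, 24.5 and 25.8 CPM in HFD_TKO, against 299, 365 and 292 CPM in HFD_WT (log2 change -3.63, SE 0.26, adjusted p = 6.8e-07). The higher member, Lpl, is also made by adipocytes. Itgad, the CD11d integrin, had one of the lowest changes of all named genes, at 3.91, 2.39 and 3.93 CPM in HFD_TKO, against 70.1, 68.9 and 67.8 CPM in HFD_WT (log2 change -4.01, SE 0.19, adjusted p = 6.3e-08), as did Hpgds, a prostaglandin D synthase (log2 change -3.81, SE 0.24, adjusted p = 3.1e-07), and Stap1, an adaptor of leukocyte receptors (log2 change -3.83, SE 0.17, adjusted p = 3.8e-08). Of 19 genes of macrophage growth and differentiation 15 were lower and the rest did not pass (median -1.63), among them Csf1r (log2 change -1.65, SE 0.14, adjusted p = 1.8e-06) and the lineage factor gene Spi1 (log2 change -2.27, SE 0.16, adjusted p = 5e-07); the CSF1R ligand gene Il34 had overlapping groups (16.1, 18.2 and 18.2 CPM in HFD_TKO, against 16.7, 16 and 18.7 CPM in HFD_WT; log2 change 0.03, adjusted p = 0.87).

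Resident macrophage genes went both ways. Of 21 genes 7 were higher and 6 lower (median -0.13), against 15.2% and 31.6% of all tested genes. Leaving out 1 library gave 5 to 7 higher and 6 lower. Retnla, a secreted marker of alternatively activated macrophages, stood at 630, 484 and 610 CPM in HFD_TKO, against 60.1, 59.6 and 142 CPM in HFD_WT (log2 change 2.82, SE 0.37, adjusted p = 7.3e-05). Mgl2, the galactose lectin CD301b, stood at 99.1, 66.5 and 75.2 CPM in HFD_TKO, against 14.4, 14.2 and 13.5 CPM in HFD_WT (log2 change 2.41, SE 0.20, adjusted p = 1.6e-06). The lectin gene Cd209d stood at 21.3, 12.3 and 13.5 CPM in HFD_TKO, against 4.26, 4.29 and 3.25 CPM in HFD_WT (log2 change 1.73, SE 0.28, adjusted p = 0.00031). Each of these had every knockout above every HFD_WT mouse, and groups did not overlap for 98.3% of all called genes. Cd163, the haemoglobin scavenger receptor, was at 124 ± 15.5 CPM in HFD_TKO and 59.7 ± 3.74 CPM in HFD_WT (SD, n = 3 each; log2 change 1.03, SE 0.23, adjusted p = 0.0028), and Lyve1, the hyaluronan receptor of perivascular macrophages and lymphatic vessels, at 66.3 ± 14.3 CPM in HFD_TKO and 33.8 ± 3.45 CPM in HFD_WT (SD, n = 3 each; log2 change 0.93, SE 0.26, adjusted p = 0.012). The mannose receptor gene Mrc1 stood at 155, 144 and 155 CPM in HFD_TKO, against 340, 362 and 361 CPM in HFD_WT (log2 change -1.22, SE 0.28, adjusted p = 0.0034). Folr2 stood at 57.4, 44.9 and 55.9 CPM in HFD_TKO, against 152, 192 and 192 CPM in HFD_WT (log2 change -1.74, SE 0.18, adjusted p = 8.4e-06), so both were lower. The summed level of the list was 2297, 1973 and 2169 CPM in HFD_TKO and 2009, 2117 and 2066 CPM in HFD_WT, so the groups overlapped in total. Ccl24, an eosinophil attractant made by such macrophages, was higher (5.54, 8.27 and 8.86 CPM in HFD_TKO, against 3.24, 3.23 and 4.2 CPM in HFD_WT; log2 change 0.89, SE 0.26, adjusted p = 0.015), a call that ended without HFD_TKO replicate 3 (0.78, adjusted p = 0.058).

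**Figure D4:**
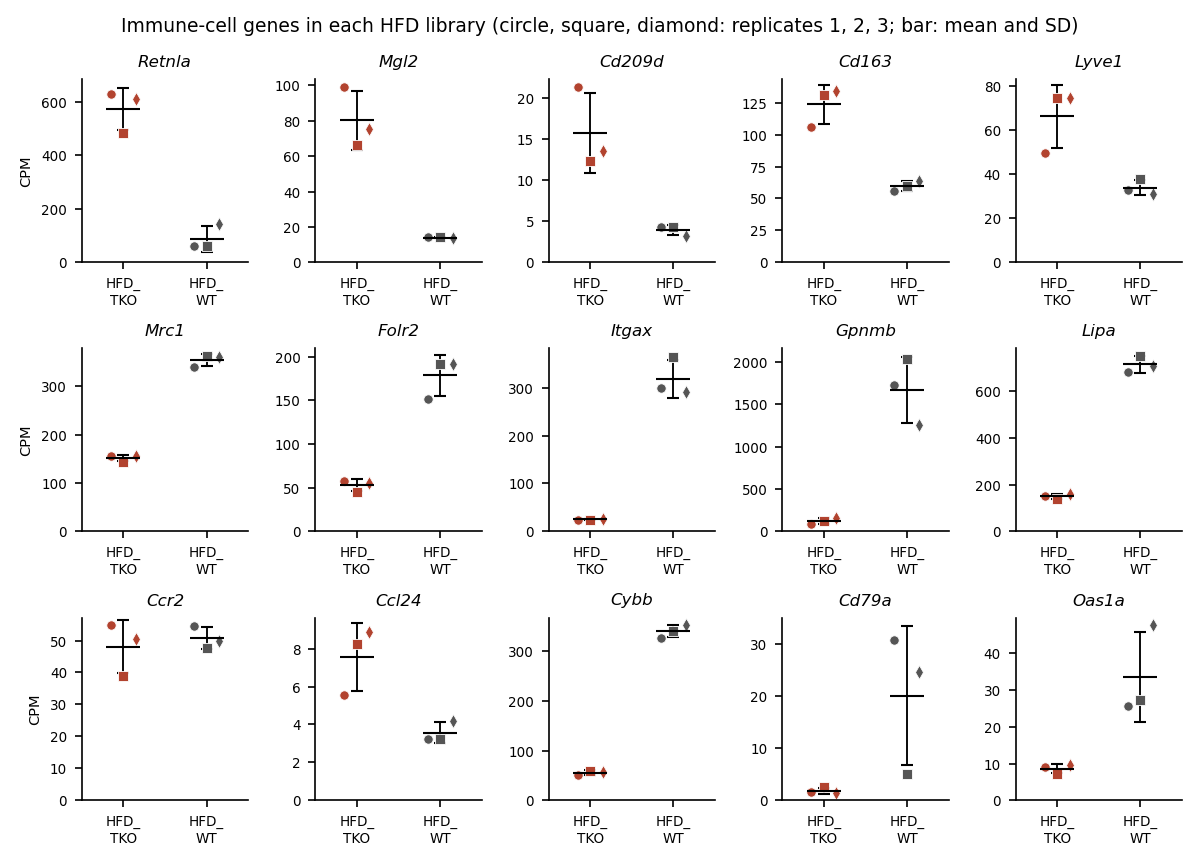
Levels in CPM of 15 immune-cell genes in each of the 6 HFD libraries, HFD_TKO left and HFD_WT right, each axis starting at 0; circles, squares and diamonds are replicates 1, 2 and 3, and bars give the mean and SD (n = 3). Retnla, Mgl2, Cd209d, Cd163 and Lyve1 lie higher in HFD_TKO, Mrc1, Folr2, Itgax, Gpnmb and Lipa lie lower, Ccr2 overlaps, and Cd79a and Oas1a show the HFD_WT mouse that differs from its group.

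Most lysosome genes were lower. Of 39 lysosome genes 33 were lower and the rest did not pass (median -1.11). Lipa, the acid lipase that digests stored lipid, stood at 150, 138 and 161 CPM in HFD_TKO, against 683, 752 and 708 CPM in HFD_WT (log2 change -2.25, SE 0.13, adjusted p = 1.9e-07). Atp6v0d2, a proton pump subunit of macrophages and osteoclasts, stood at 23.4, 28.9 and 40.2 CPM in HFD_TKO, against 330, 374 and 331 CPM in HFD_WT (log2 change -3.47, SE 0.34, adjusted p = 6.1e-06). The cathepsin gene Ctsk stood at 47.8, 44.3 and 44 CPM in HFD_TKO, against 331, 392 and 257 CPM in HFD_WT (log2 change -2.80, SE 0.17, adjusted p = 3e-07). Lamp1, which is present in lysosomes of all cells, was at 1059, 832 and 909 CPM in HFD_TKO, against 1340, 1399 and 1296 CPM in HFD_WT (log2 change -0.53, SE 0.10, adjusted p = 0.00079). Mitf, one of the transcription factors of lysosome genes, was lower (log2 change -1.77, SE 0.29, adjusted p = 0.0004).

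Most genes of innate immune sensing and complement were lower. Of 23 Toll-like receptor and adaptor genes 20 were lower and the rest did not pass (median -0.98; 18 lower and 1 higher with TMM scaling, and 1 higher without HFD_TKO replicate 1). Tlr13, a receptor for bacterial ribosomal RNA in mice, stood at 15, 15.8 and 21.9 CPM in HFD_TKO, against 149, 169 and 166 CPM in HFD_WT (log2 change -3.15, SE 0.25, adjusted p = 1.3e-06). Tlr2 stood at 5.26, 6.34 and 5.89 CPM in HFD_TKO, against 36.5, 35.9 and 31.3 CPM in HFD_WT (log2 change -2.38, SE 0.12, adjusted p = 6.9e-08). For Tlr4, the endotoxin receptor, the values were close to the list's median (log2 change -0.98, SE 0.10, adjusted p = 1.2e-05). Of 21 inflammasome and cytokine genes 18 were lower and the rest did not pass (median -1.35): Casp1, the protease that matures interleukin 1β, stood at 14.3, 11.3 and 13 CPM in HFD_TKO, against 77.7, 74 and 80.9 CPM in HFD_WT (log2 change -2.51, SE 0.10, adjusted p = 3e-08), whereas Il1b itself was under 1 CPM in every HFD library (log2 change -0.29, adjusted p = 0.14). Of 26 complement genes 21 were lower and 1 higher (median -1.66; 2 higher without HFD_TKO replicate 1 or ND_WT replicate 3), with C3, the central component, at 1085, 1209 and 1245 CPM in HFD_TKO, against 3943, 4148 and 3229 CPM in HFD_WT (log2 change -1.67, SE 0.17, adjusted p = 1e-05). The initiating protease gene Masp1 stood at 8.09, 5.42 and 5.8 CPM in HFD_TKO, against 2.15, 2.57 and 3.77 CPM in HFD_WT (log2 change 0.96, SE 0.21, adjusted p = 0.0027). Of 10 NADPH oxidase genes 8 were lower and 2, Duox1 and Duox2, higher. The Duox2 call (adjusted p = 0.05) ended in 12 of the 22 alternatives, 5 of them leaving out 1 HFD library (all but HFD_TKO replicate 2), so that 1 member was higher. The phagocyte catalytic subunit gene Cybb stood at 51.3, 59.5 and 56.9 CPM in HFD_TKO, against 327, 341 and 352 CPM in HFD_WT (log2 change -2.58, SE 0.17, adjusted p = 4.7e-07). Its partner Cyba stood at 35.8, 33.4 and 43.7 CPM in HFD_TKO, against 157, 167 and 159 CPM in HFD_WT (log2 change -2.08, SE 0.12, adjusted p = 1.9e-07). The epithelial oxidase gene Duox1 stood at 4.09, 3.08 and 4.89 CPM in HFD_TKO, against 1.33, 1.64 and 1.3 CPM in HFD_WT (log2 change 1.04, SE 0.22, adjusted p = 0.0023).

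Antioxidant enzymes went both ways (9 of 29 higher, 7 lower; median -0.02 with CPM and 0.12 with TMM scaling). Prdx6, a peroxiredoxin that also repairs phospholipids, stood at 905, 536 and 522 CPM in HFD_TKO, against 306, 307 and 267 CPM in HFD_WT (log2 change 1.11, SE 0.20, adjusted p = 0.00082), highest in replicate 1, and the superoxide dismutase gene Sod1 rose by 0.66. Nfe2l2, the master regulator NRF2, stood at 82.4, 87.7 and 94.3 CPM in HFD_TKO, against 132, 140 and 144 CPM in HFD_WT (log2 change -0.65, SE 0.08, adjusted p = 6.1e-05), and its target Srxn1 had a change of -0.58. Hmox1, the haem oxygenase, was at 310, 92.4 and 98 CPM in HFD_TKO, against 206, 220 and 190 CPM in HFD_WT (log2 change -0.54, adjusted p = 0.32); without HFD_TKO replicate 1 it was lower (-1.10, adjusted p = 0.011).

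The acute-phase genes were opposed. The haptoglobin gene Hp, made by fat as well as liver, stood at 3187, 1482 and 1764 CPM in HFD_TKO, against 6038, 5705 and 5227 CPM in HFD_WT (log2 change -1.48, SE 0.22, adjusted p = 0.00019). The orosomucoid genes were higher, Orm1 at 504, 359 and 359 CPM in HFD_TKO, against 153, 140 and 137 CPM in HFD_WT (log2 change 1.48, SE 0.25, adjusted p = 0.00039). Orm3 stood at 18.7, 40.9 and 40.9 CPM in HFD_TKO, against 0.547, 0.531 and 0.693 CPM in HFD_WT (log2 change 4.36, SE 0.35, adjusted p = 1.6e-06). Orm1, Orm2 and Orm3 are close copies, and reads could be split between them. Saa3 was highest in replicate 1 among the knockouts (58.1, 12.3 and 15.2 CPM in HFD_TKO, against 60.5, 58.5 and 30.7 CPM in HFD_WT; log2 change -1.06, adjusted p = 0.12), and without that library it was lower (-1.73, adjusted p = 0.0068).

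Chemokine genes were largely lower. Among ligands 16 of 26 were lower and 4 higher (median -1.10; 2 higher without HFD_TKO replicate 3), and among receptors 10 of 17 were lower and 3 higher (median -1.13). Only 1 receptor was higher without HFD_TKO replicate 3 or without any 1 of the HFD_WT mice, and 2 without either of the other HFD_TKO mice. Ccl3, a macrophage ligand, stood at 0.652, 1.06 and 1.23 CPM in HFD_TKO, against 7.93, 10.7 and 9.09 CPM in HFD_WT (log2 change -2.37, SE 0.17, adjusted p = 6.5e-07). Cxcl14 stood at 6.65, 5.79 and 7.22 CPM in HFD_TKO, against 27.3, 30.5 and 25.1 CPM in HFD_WT (log2 change -1.92, SE 0.13, adjusted p = 4.3e-07). Ccr2, the receptor by which blood monocytes enter fat, stood at 54.8, 38.9 and 50.6 CPM in HFD_TKO, against 54.6, 47.7 and 50 CPM in HFD_WT (log2 change -0.09, adjusted p = 0.8). Ccr1 stood at 7.3, 7.67 and 10.7 CPM in HFD_TKO, against 10.3, 8.28 and 7.75 CPM in HFD_WT (log2 change -0.04, adjusted p = 0.91). Both genes overlapped between groups. The decoy receptor gene Ackr4 was higher (14.8, 20.9 and 20.1 CPM in HFD_TKO, against 8.2, 8.81 and 6.67 CPM in HFD_WT; log2 change 1.13, SE 0.20, adjusted p = 0.00058).

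Most lymphocyte and mast cell genes were lower. Of 26 genes of T, NK and B cells 22 were lower and the rest did not pass (median -1.54). Jchain, the joining chain of secreted antibodies made by plasma cells, stood at 3.77, 4.87 and 7.31 CPM in HFD_TKO, against 157, 56.9 and 188 CPM in HFD_WT (log2 change -4.28, SE 0.69, adjusted p = 0.00031). The B cell receptor gene Cd79a stood at 1.63, 2.53 and 1.42 CPM in HFD_TKO, against 30.6, 5.05 and 24.5 CPM in HFD_WT (log2 change -2.59, SE 0.61, adjusted p = 0.0045). HFD_WT replicate 2 was well below its group for both and for Cd3e of T cells (0.605, 0.69 and 0.64 CPM in HFD_TKO, against 5.43, 1.77 and 6.45 CPM in HFD_WT; log2 change -1.63, SE 0.28, adjusted p = 0.00054). Without that library 23 genes of the list were lower and the median was -1.97. Lymph node genes varied with the same library: 4 of 5 were lower in HFD_TKO. The summed level of all 5 was 68.2, 74.6 and 61 CPM in HFD_TKO and 138, 65.5 and 130 CPM in HFD_WT. In HFD_TKO most of that sum was the chemokine gene Ccl21a, the member not called. Ccl21a stood at 58.2, 71.1 and 56.8 CPM in HFD_TKO, against 62.2, 36.3 and 87.8 CPM in HFD_WT (log2 change 0.08, adjusted p = 0.91). The part of lymph node tissue in these values was not tested. Foxp3, the factor of regulatory T cells, had tight values, at 8.28, 8.41 and 9.73 CPM in HFD_TKO, against 14.6, 14 and 13.5 CPM in HFD_WT (log2 change -0.62, SE 0.13, adjusted p = 0.0019). Its level was above that of Cd3e in every HFD library, and HFD_WT replicate 2 was not the lowest of its group. Which cells held the Foxp3 reads was not tested. Of 15 mast cell and granulocyte genes 11 were lower and the rest did not pass (median -1.87), with the mast cell carboxypeptidase gene Cpa3 at 3.72, 4.04 and 4.25 CPM in HFD_TKO, against 48.9, 49.8 and 56.6 CPM in HFD_WT (log2 change -3.40, SE 0.20, adjusted p = 2.1e-07). The protease gene Mcpt4 stood at 3.3, 3.86 and 6.03 CPM in HFD_TKO, against 50.1, 56.2 and 65.9 CPM in HFD_WT (log2 change -3.46, SE 0.24, adjusted p = 5.6e-07).

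Most genes of antigen presentation and interferon response were lower. Of 21 genes of MHC class II and dendritic cells 15 were lower and 1 higher (median -1.27; 2 higher without HFD_WT replicate 1 or ND_TKO replicate 2), and of 19 of MHC class I presentation 15 were lower (median -0.52; 12 with TMM scaling). H2-K1, a class I heavy chain, stood at 560, 591 and 652 CPM in HFD_TKO, against 1539, 1445 and 1926 CPM in HFD_WT (log2 change -1.44, SE 0.13, adjusted p = 4.2e-06). The invariant chain gene Cd74 stood at 871, 723 and 787 CPM in HFD_TKO, against 1882, 1823 and 2337 CPM in HFD_WT (log2 change -1.34, SE 0.18, adjusted p = 9.2e-05). The exception, the dendritic lectin gene Cd209a, was higher (13.3, 8.09 and 8.77 CPM in HFD_TKO, against 2.3, 2.61 and 2.16 CPM in HFD_WT; log2 change 1.69, SE 0.23, adjusted p = 8.2e-05). Of 24 interferon-stimulated genes 16 were lower (median -0.66), 11 without HFD_TKO replicate 1, 11 without HFD_WT replicate 3 and 19 without HFD_WT replicate 2. Oas1a, an antiviral RNA sensor, stood at 9.02, 7.26 and 9.5 CPM in HFD_TKO, against 25.6, 27.3 and 47.7 CPM in HFD_WT (log2 change -1.80, SE 0.21, adjusted p = 2.8e-05). Ifit3 stood at 48.2, 47 and 39.2 CPM in HFD_TKO, against 42.6, 35.8 and 68.1 CPM in HFD_WT (log2 change -0.07, adjusted p = 0.8).

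Most cell cycle genes were lower, 23 of 29 with 1 higher (median -1.14). Mki67, which encodes the proliferation antigen Ki-67, stood at 24.7, 18.2 and 22.3 CPM in HFD_TKO, against 74.3, 69 and 71.8 CPM in HFD_WT (log2 change -1.69, SE 0.17, adjusted p = 8.2e-06). Mcm6, a subunit of the replicative helicase, stood at 24.2, 18.4 and 20.7 CPM in HFD_TKO, against 74.6, 73.5 and 74.7 CPM in HFD_WT (log2 change -1.78, SE 0.11, adjusted p = 3.2e-07). Ccnd2, a cyclin of growth phase, was the higher member (367, 387 and 370 CPM in HFD_TKO, against 307, 291 and 265 CPM in HFD_WT; log2 change 0.38, SE 0.08, adjusted p = 0.0015). The inhibitor gene Cdkn1a had overlapping groups (log2 change 0.24, adjusted p = 0.71).

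Collagen genes went both ways. Of 24 collagen genes 7 were higher and 9 lower (median -0.12 with CPM and 0.02 with TMM scaling). Col5a3, a fibrillar chain of fat and muscle, stood at 1193, 1451 and 1562 CPM in HFD_TKO, against 503, 515 and 383 CPM in HFD_WT (log2 change 1.59, SE 0.20, adjusted p = 5.6e-05). Col15a1 of the basement membrane zone stood at 1354, 1509 and 1500 CPM in HFD_TKO, against 855, 909 and 776 CPM in HFD_WT (log2 change 0.78, SE 0.16, adjusted p = 0.0017). Col6a1 and Col6a2, chains of the microfibrils around adipocytes, rose by 0.92 and 1.01, whereas Col6a5 stood at 98.3, 66 and 60.3 CPM in HFD_TKO, against 345, 422 and 312 CPM in HFD_WT (log2 change -2.27, SE 0.39, adjusted p = 0.00047) and Col6a3 did not pass (log2 change 0.31, adjusted p = 0.19). Col16a1 and Col12a1, which associate with interstitial fibrils, had changes of -1.46 and -1.13. Of 28 genes of matrix proteases, inhibitors and crosslinkers 16 were lower and 2 higher (median -0.70), with 1 higher without HFD_TKO replicate 2 or 3 or HFD_WT replicate 1 or 2. Mmp3, the stromelysin, stood at 3.4, 1.93 and 3.61 CPM in HFD_TKO, against 33, 38.7 and 30.4 CPM in HFD_WT (log2 change -3.16, SE 0.26, adjusted p = 2e-06). Timp4, a protease inhibitor of fat, stood at 95.1, 126 and 120 CPM in HFD_TKO, against 39.1, 34.4 and 41.8 CPM in HFD_WT (log2 change 1.53, SE 0.28, adjusted p = 0.00071).

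Proteoglycan genes were lower or did not pass. Of 13 small leucine-rich proteoglycan genes 6 were lower and the rest did not pass (1 was higher without ND_WT replicate 3), with Dcn, the decorin gene, at 777, 1163 and 1151 CPM in HFD_TKO, against 1908, 2097 and 1958 CPM in HFD_WT (log2 change -0.97, SE 0.15, adjusted p = 0.00027). Bgn stood at 365, 412 and 448 CPM in HFD_TKO, against 839, 976 and 761 CPM in HFD_WT (log2 change -1.07, SE 0.20, adjusted p = 0.0011). Comp, a cartilage-type thrombospondin, was close to 0 in the knockouts, at 0.419, 0.276 and 0.183 CPM in HFD_TKO, against 13.9, 12.3 and 13.6 CPM in HFD_WT (log2 change -3.47, SE 0.14, adjusted p = 3e-08). Igfbp5, a binding protein of insulin-like growth factors, was higher (623, 742 and 657 CPM in HFD_TKO, against 314, 282 and 258 CPM in HFD_WT; log2 change 1.24, SE 0.23, adjusted p = 0.001). In all 3 of 23 matricellular genes were higher and 6 lower, against 15.2% and 31.6% of all tested genes. Of 20 progenitor and stromal markers 3 were higher and 9 lower (median -0.31), to be set beside the same shares of 15.2% and 31.6%. The higher members numbered 0 without HFD_TKO replicate 2, HFD_TKO replicate 3 or HFD_WT replicate 2, and 1 without HFD_WT replicate 1. Pdgfra, the marker of fat progenitors, stood at 39.4, 53.4 and 58 CPM in HFD_TKO, against 132, 147 and 133 CPM in HFD_WT (log2 change -1.45, SE 0.15, adjusted p = 1.1e-05). Pi16, a marker of early progenitors, stood at 53.2, 54.7 and 70.8 CPM in HFD_TKO, against 56.9, 75 and 57.8 CPM in HFD_WT (log2 change -0.08, adjusted p = 0.87).

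The endothelial junction genes Pecam1 (236, 236 and 214 CPM in HFD_TKO, against 245, 226 and 272 CPM in HFD_WT; log2 change -0.11, adjusted p = 0.35) and Cdh5 (223, 227 and 196 CPM in HFD_TKO, against 210, 207 and 218 CPM in HFD_WT; log2 change 0.02, adjusted p = 0.89) overlapped between groups. Of 23 genes 7 were higher and 2 lower (median 0.16; 12 and 1 with TMM scaling). There were 3 higher without HFD_TKO replicate 2 and 4 without HFD_TKO replicate 3 or HFD_WT replicate 2, and 1 lower without any 1 HFD library. Robo4, an endothelial guidance receptor, stood at 76, 80.4 and 70.9 CPM in HFD_TKO, against 43.3, 42.6 and 48.2 CPM in HFD_WT (log2 change 0.75, SE 0.09, adjusted p = 4.8e-05). The growth factor gene Vegfb stood at 72.7, 89.6 and 89.4 CPM in HFD_TKO, against 40.7, 41.4 and 41.8 CPM in HFD_WT (log2 change 1.0, SE 0.10, adjusted p = 1.2e-05). None of 10 mesothelium genes passed by limma in either direction, with CPM or with TMM scaling, and 1 had an unadjusted p under 0.05 (median -0.05 with CPM and 0.05 with TMM scaling). There were 4 higher (median 0.56) without HFD_TKO replicate 1, and 1 lower without HFD_TKO replicate 2 or 3. Msln, the mesothelin gene, stood at 11.2, 52.2 and 46 CPM in HFD_TKO, against 23.7, 18.5 and 14.4 CPM in HFD_WT (log2 change 0.68, adjusted p = 0.28), and its change was 1.36, adjusted p = 0.0054 without HFD_TKO replicate 1.

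**Figure D5:**
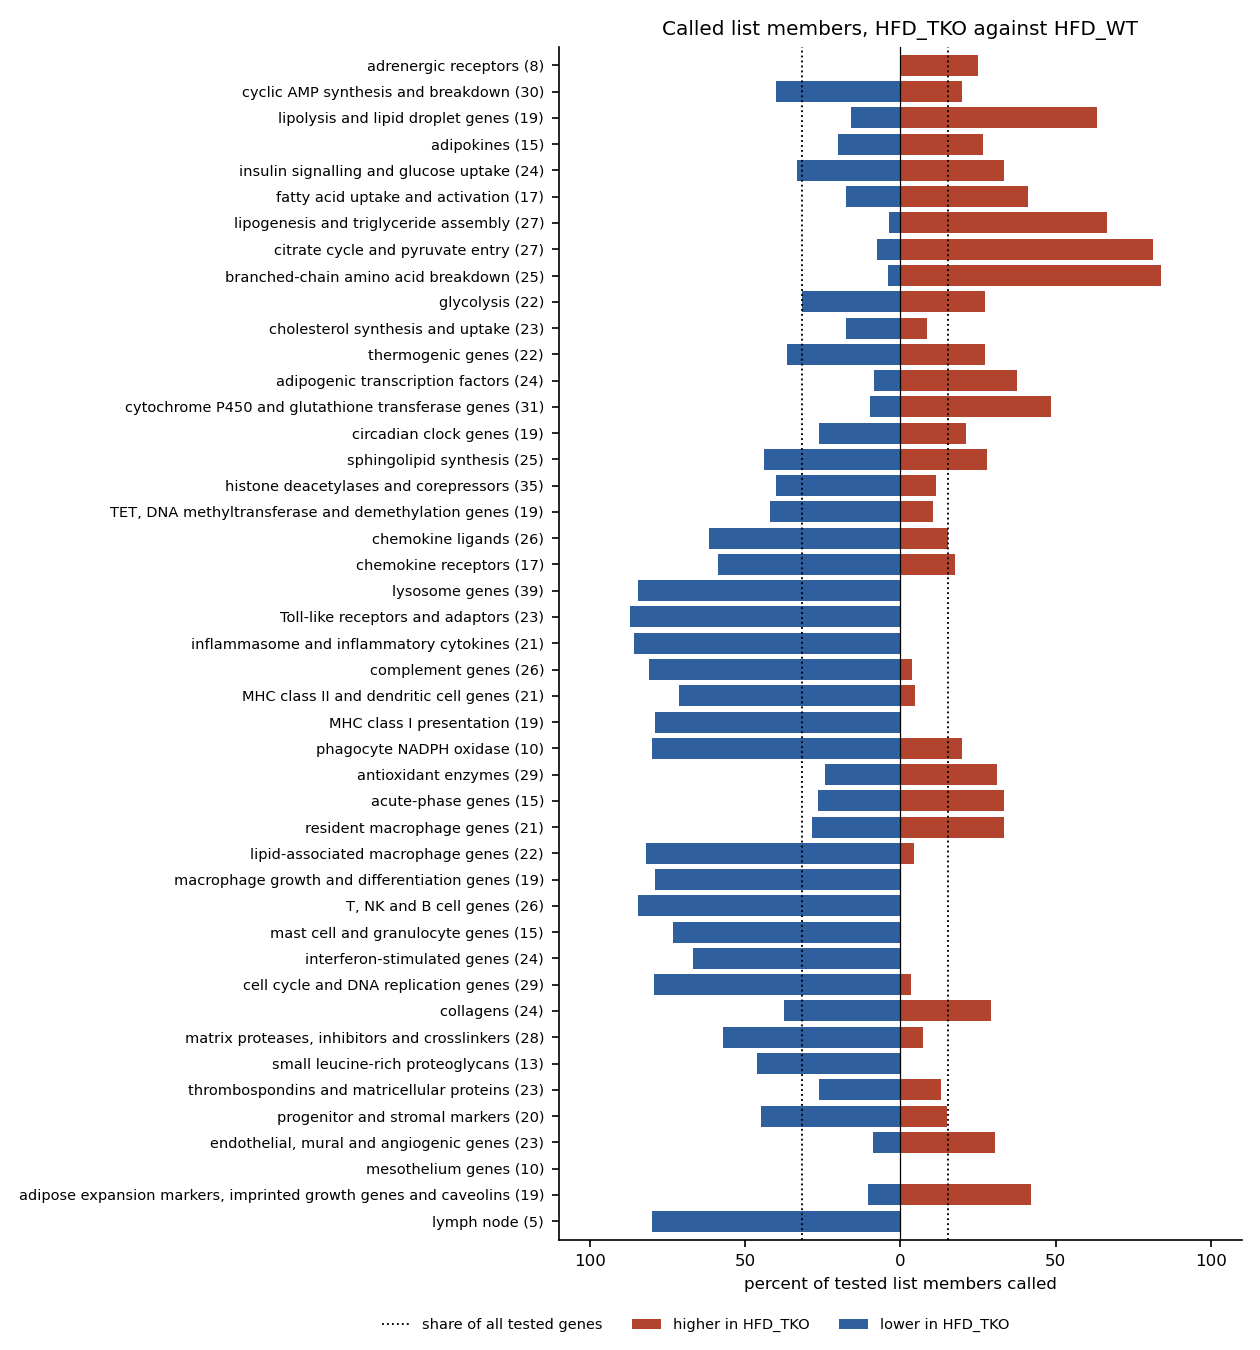
For each gene list with at least 5 tested genes (number in brackets), bars give the percent of members called higher (right) and lower (left) in HFD_TKO against HFD_WT, and dotted lines mark the shares over all tested genes, 15.2% and 31.6%. Branched-chain amino acid, citrate cycle and lipogenesis lists reach far right of the line, lysosome, Toll-like receptor and lymphocyte lists far left, and resident macrophage, collagen and antioxidant lists extend both ways.

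The knockout effect on HFD was set beside that on ND, which was measured in other mice. The genotype by diet interaction was called for 4476 genes (28.7%), with 1550 (9.94%) higher and 2926 (18.8%) lower, where higher means a more positive knockout effect on HFD. For some genes the interaction was not called and the changes were close in size, which does not show that they were equal. Plppr4 changed by 3.26 on HFD and 3.28 on ND (interaction -0.01, SE 0.52, adjusted p = 0.99), and Ucp3 by -2.06 and -2.21 (interaction 0.15, SE 0.18, adjusted p = 0.57). Lum, the lumican proteoglycan gene, was lower on HFD, at 223, 214 and 214 CPM in HFD_TKO, against 473, 555 and 427 CPM in HFD_WT (log2 change -1.15, SE 0.11, adjusted p = 6.3e-06), and higher on ND, at 190, 192 and 162 CPM in ND_TKO, against 67.3, 58.9 and 75.4 CPM in ND_WT (log2 change 1.42, adjusted p = 4.3e-05), with an interaction of -2.57 (SE 0.16, adjusted p = 2.6e-06). Gpr50, an orphan receptor related to the melatonin receptors, also went both ways: it stood at 5.02, 4.92 and 3.98 CPM in HFD_TKO, against 21, 23.8 and 25.8 CPM in HFD_WT (log2 change -2.12, SE 0.13, adjusted p = 2.5e-07), and at 3.28, 4.03 and 2.98 CPM in ND_TKO with no read in any ND_WT library. Sptlc3 was higher on both diets and by less on HFD (1.25 against 4.34 on ND; interaction -3.09, adjusted p = 2.2e-06).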

How the data were processed

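RNA was sequenced from epididymal fat of 12 C57BL/6 mice, 3 in each of 4 groups, which the labels' protocols describe as biological replicates. The authors deposited 1 table of CPM per gene, that is, each gene's share of the reads of its library on a fixed scale. The submitters' processing notes list mm10 as the build and, as tools, featureCounts 2.0.0, STAR 2.7.3a and DESeq2. Annotation release, strand setting and handling of reads with several matches are not given in the sources used here. Every deposited CPM value corresponded to a whole read number plus an offset of 0.01 reads (100% within a tolerance of 0.05 reads), so reads per library were recovered (20973140 to 25606629). CPM is a share of all reads, so a gain of abundant genes lowers the others. The 3 rows without a symbol (0.0313 to 0.0679% of reads) were left out. Intervals from replicates rest on 3 mice a group.

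Genes with at least 0.5 CPM in at least 3 libraries were tested with limma 3.58.1 in R 4.3.3 (trend and empirical Bayes) on log2(CPM + 1), 1 mean per group, all 12 libraries, 8 residual degrees of freedom, Benjamini-Hochberg adjustment over all 15597 genes and a threshold of 0.05. Fold changes on this scale understate those of low genes. At the border of the filter, the third-highest library was at 0.5024 CPM for Gm15455, Gm17597 and Mir7052, just inside, and at 0.4894 CPM for 5830454E08Rik, Npffr1 and Awat2, just outside. Another gene had the very same values for 89 tested genes. Alternatives were TMM scaling, pseudocounts of 0.1 and 5, 2 other filters, the 6 HFD libraries alone, edgeR 4.0.16, DESeq2 1.42.0 and limma-voom on recovered reads, a replicate block, and leaving out each library. Genes were named from the lists' panels, the 10 highest and 10 lowest changes, the 8 largest gains and losses of CPM, the 3 largest rises and falls and the minority direction in each list, the 6 highest and lowest interactions, and the genes with a printed promoter. Some genes that this rule names are not reported here. Members and lists were chosen with earlier results of these data known. Scripts were tested on simulated data.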

Additional observations from a re-analysis of the deposited data

Results flagged for a closer look

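The knockout effect differed between diets for 4476 genes by the limma test of the interaction, which is the change on HFD minus that on ND. Among the genes with the highest interactions, Cyp2e1 stood at 6.47 (log2 change 5.59 on HFD and -0.89 on ND), Rnase2a at 4.96 (5.51 and 0.56) and Orm3 at 4.53 (4.36 and -0.18). Adrb3 stood at 3.81 (3.58 and -0.23) and Thrsp at 3.31 (3.05 and -0.26). The albumin gene Alb stood at 3.16, higher on HFD (2.05) and lower on ND (-1.10, adjusted p = 0.019).

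Among the lowest interactions, Myh15 stood at -4.52 (-4.50 on HFD and 0.01 on ND), Itgad at -4.38 (-4.01 and 0.37) and Jchain at -4.37 (-4.28 and 0.08). Gpr50 stood at -4.26 (-2.12 and 2.14), with no read in any ND_WT library, so that its fitted ND change depends on the pseudocount. Lipf, the gastric lipase gene, stood at -4.19 (-2.81 and 1.38) and Zranb3 at -4.18 (-4.20 and -0.02). These genes were selected for their interaction.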

How the results depend on the processing

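Genes higher in HFD_TKO numbered 3612 with edgeR, 3608 with DESeq2, 3565 with limma-voom and 3539 with TMM-scaled CPM, against 2365 with CPM; the cause was not tested beyond the TMM scaling. Counts of lower genes stayed within 1.5 times under the 22 alternatives, and counts of interactions under those that fitted both diets; fitting the HFD libraries alone gives no interaction. Leaving out 1 library gave 1890 to 2653 higher and 4120 to 5160 lower genes on HFD (6103 to 7813 called), and 1154 to 1810 higher and 2387 to 3267 lower genes for the interaction. With the replicate number as a block 2308 genes were higher and 4806 lower on HFD, and 4228 interactions were called, against 4476 without the block. Deviations of same-numbered HFD_TKO and HFD_WT libraries correlated at -0.34 to 0.21 across genes. Those of HFD_TKO and ND_TKO correlated at 0.39, 0.56 and 0.12, and unlike-numbered libraries of these groups at -0.528 to 0.114. Of the other 4 pairs of groups, none correlated above 0.1 in every pair. Libraries with unlike numbers reached 0.56 (HFD_TKO replicate 2 with ND_WT replicate 1) and 0.51 (HFD_TKO replicate 2 with HFD_WT replicate 3). Deviations within a group of 3 libraries depend on each other, so these correlations cannot decide on pairing, which the design does not state. Of 350 tested named genes 287 stayed on their side of the threshold under every alternative, 46 lost a call in at least 1, 17 gained one and none (0) reversed. Groups of 3 mice limit the precision of each value.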
